A study of Homo sapiens with 2 samples.

Results

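The imprinted domain on human chromosome 14 holds a pair of microRNA gene clusters, and their signal was followed here in BE(2)-C neuroblastoma cells after transfection with linc00467 siRNA. The members are 51 microRNA genes: 9 of an upstream group, from MIR493 to MIR370, and 42 of a downstream group, from MIR379 to MIR656. They were taken by gene symbol from the platform annotation. That annotation names 51 probe sets for 50 of them, among 14884 genes with a named probe set. MIR433 of the upstream group has no named probe set and is left out, so 8 upstream and 42 downstream genes were measured. MIR376A1 has 2 probe sets, which were averaged. These members were selected from the very difference described here, since the downstream group had been noticed for low values on the linc00467 siRNA array, so their differences are a description and support nothing by themselves.
BE(2)-C cells come from a human neuroblastoma, a tumour of the peripheral nervous system, and the MYCN amplification of the line was present in both cultures. The control siRNA group is 1 culture and the linc00467 siRNA group is 1 culture, each collected 48 hours after transfection, with total RNA hybridized to 1 Affymetrix HuGene-2_0-st array. The paper names siRNA-1 as the linc00467 siRNA of this array. With 1 array per condition no error between cultures could be computed and no test was made, so every value below describes these 2 arrays, and differences between cultures or between hybridizations cannot be told apart from those between the siRNAs.

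In an imprinted domain, genes are expressed from the maternal or the paternal chromosome only. Here the long noncoding RNA MEG3, the RNAs MEG8 and MEG9, small nucleolar RNAs and both microRNA clusters are known to come from the maternal copy, whereas the protein-coding genes DLK1, RTL1 and DIO3 come from the paternal copy. A microRNA is cut from a hairpin in a longer primary transcript by DROSHA with DGCR8, exported by XPO5 and trimmed by DICER1 to the mature RNA. The mature RNA guides Argonaute proteins to target mRNAs, mainly through its seed, which is bases 2 to 8 from its 5′ end. The downstream cluster is best known from brain, and in rodent neurons the transcription factor Mef2 drives it in response to activity. In mouse, the upstream microRNAs that lie opposite Rtl1 direct cleavage of the Rtl1 mRNA.

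All 50 measured members have at least 1 mature sequence in RefSeq (GRCh38.p14), 88 mature names with 77 distinct seeds in all. The hairpin of MIR154, which had the largest negative difference of the members, lies at chr14:101059755-101059838 on the plus strand. The hairpins of MIR329-1 (chr14:101026785-101026864) and MIR329-2 (chr14:101027100-101027183), also on the plus strand, are near-identical neighbours. They are shown whole because the results turn on these genes, with the mature sequences in capitals.
MIR154: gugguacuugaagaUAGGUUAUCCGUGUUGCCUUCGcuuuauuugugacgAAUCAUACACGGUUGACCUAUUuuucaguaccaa
MIR329-1: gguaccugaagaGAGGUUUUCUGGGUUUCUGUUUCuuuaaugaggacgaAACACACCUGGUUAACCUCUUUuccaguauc
MIR329-2: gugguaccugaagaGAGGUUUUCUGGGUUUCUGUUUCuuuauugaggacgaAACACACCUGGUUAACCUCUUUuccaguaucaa
The hairpins of MIR329-1 and MIR329-2 are 80 and 84 bases long and differ by 5 edits, an identity of 94.0%. Both give the same pair of mature RNAs, so their probe sets can bind the same RNA.

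Of the 13 seeds that occur in more than 1 measured member, all lie within the downstream group, and they join 22 of its genes. Not all of these families are printed below, and the choice of sequences rested in part on large negative differences. The genes of each family lie in the same cluster and their seeds are the same, and capitals mark the seed. The first family carries the seed of miR-154-3p, and the next is the same letters moved by 1 base.
miR-154-3p: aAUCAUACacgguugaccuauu
miR-487a-3p: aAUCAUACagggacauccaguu
miR-485-3p: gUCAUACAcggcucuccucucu
miR-539-3p: aUCAUACAaggacaauuucuuu
Another 3 families are those of miR-329-3p alone, of miR-300 with miR-381-3p, and of the miR-1185 3p RNAs.
miR-329-3p: aACACACCugguuaaccucuuu
miR-300: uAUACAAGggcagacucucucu
miR-381-3p: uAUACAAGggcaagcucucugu
miR-1185-1-3p: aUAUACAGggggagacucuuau
miR-1185-2-3p: aUAUACAGggggagacucucau
In the miR-376 family, whose adenosines are known to be edited in brain, MIR376A1, MIR376A2 and MIR376B share a 3p seed. MIR376C has another 3p seed and shares its 5p seed with MIR376B. The 5p RNAs of MIR494, MIR323B and MIR410 form the other family of 3 genes.
miR-376a-3p: aUCAUAGAggaaaauccacgu
miR-376b-3p: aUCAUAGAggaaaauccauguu
miR-494-5p: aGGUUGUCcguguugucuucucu
miR-323b-5p: aGGUUGUCcguggugaguucgca
miR-410-5p: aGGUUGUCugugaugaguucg
The last pair shown is that of miR-541-3p and miR-654-5p, whose genes were not lower with linc00467 siRNA.
miR-541-3p: uGGUGGGCacagaaucuggacu
miR-654-5p: uGGUGGGCcgcagaacaugugc

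The targeted RNA was measured first. LINC00467 read 6.55 on the control siRNA array and 5.67 on the linc00467 siRNA array, in log2 units, which is a difference of -0.88. A description in the labels of the second sample calls the target lncMycN, whereas its title and treatment name linc00467. Of 8 neuroblastoma markers, 7 have a named probe set, and their mean levels ran from 6.47 for TH to 11.03 for HAND2. Their differences had a median of -0.24. CHGA, DBH and GATA3, 42.9% of the 7, were lower by 1.2 fold, beside 9.72% of all named genes and 13.4% of those at or above the median level. ISL1 was higher by it, beside 8.56% of all named genes. The part of these markers in the members' differences was not tested. Levels of the 5 measured markers of Schwann, blood and endothelial cells ran from 3.44 to 6.04 and none of these was lower by 1.2 fold. Of all probe sets, 23.7% had the same value on the 2 arrays to the last digit.

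With linc00467 siRNA, 36 of 42 downstream microRNA genes had a lower signal than with control siRNA, 4 were exactly equal and 2 were higher. The share below 0 was 85.7%, beside 36.6% of all named genes and 43.9% of 1022 other microRNA genes. At least 1.2-fold lower were 25 of the 42, or 59.5%, where the background was 9.72% of all named genes and 13.3% of other microRNA genes. By at least 1.8 fold, 6 were lower, or 14.3%, beside 0.558% and 0.881%. The 6 were MIR154, MIR329-1, MIR329-2, MIR485, MIR379 and MIR376A2. Only MIR376B was higher by 1.2 fold, 1 of 42 beside 8.56% of all named genes. The rule used this contrast, so nothing is read from these shares. The median difference was -0.35 (quartiles -0.64 and -0.10), and the median over all named genes was 0.00.

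**Figure D1:**
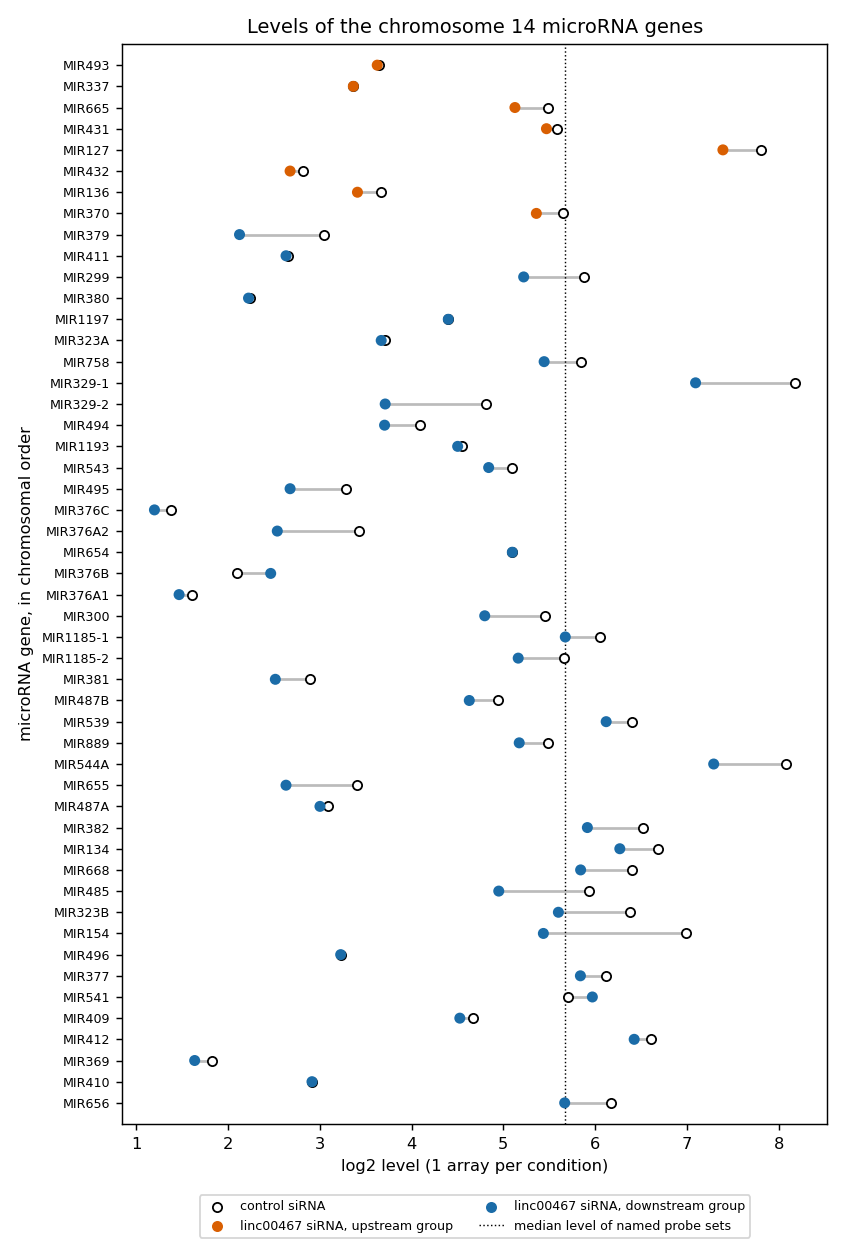
Log2 level of each measured member on the control siRNA array (open circles) and on the linc00467 siRNA array (filled circles, orange for the upstream and blue for the downstream group), in chromosomal order from top to bottom, 1 array per condition. The filled circle lies to the left for 43 of 50 genes, on the open circle for 5 and to the right for MIR376B and MIR541, and the dotted line is the median mean level of named probe sets, 5.68.

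MIR154, which gives its name to a family of related microRNAs of the cluster, read 6.99 on the control siRNA array and 5.44 on the other, a difference of -1.55 or 2.93 fold. MIR329-1 read 8.18 and 7.09, a difference of -1.09 or 2.12 fold. MIR329-2 read 4.82 and 3.71, a difference of -1.10 or 2.15 fold. The neighbouring copies thus had nearly the same difference, but their probe sets can bind the same RNA and are not independent.
MIR485, which in rat neurons acts on a synaptic vesicle protein, read 5.94 with control siRNA and 4.95 with linc00467 siRNA (-0.99). MIR379, the first gene of the downstream cluster, read 3.05 and 2.13 (-0.92). MIR376A2 read 3.43 and 2.54 (-0.89). The last 2 were below the median signal of a list of 100 genes expected to be silent here, 3.74 on the control siRNA array and 3.85 on the other, on both arrays. With a floor at the silent genes neither was lower. In what follows, under or above the silent genes means under or above this median. The mean levels of the 100 silent genes themselves ran from 1.55 to 8.46, with 10 at or above 5.68. A gene above their median is therefore not shown to be clear of background.

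Among the 13 downstream genes whose mean level reached the median of named probe sets, 5.68, 12 were lower and MIR541 was higher. Past 1.2 fold lay 11 of the 12, which is 84.6% of the 13. At such levels 13.4% of named genes and 17% of other microRNA genes were lower by 1.2 fold. The median of the 13 was -0.50, beside -0.002 for the 171 other microRNA genes at such levels. MIR154 and MIR329-1 are among these 13.
MIR544A read 8.07 on the control siRNA array and 7.29 on the linc00467 siRNA array (-0.78). MIR323B read 6.38 and 5.60 (-0.78). MIR382 read 6.52 and 5.91 (-0.61). These 3 had differences between those of MIR668 and MIR329-1.
MIR668 read 6.40 and 5.84 (-0.56), and MIR656, the last gene of the cluster, read 6.17 and 5.67 (-0.50). MIR134, whose microRNA limits dendritic spine size in rat neurons through Limk1, read 6.69 and 6.27 (-0.42). MIR1185-1 read 6.05 and 5.67 (-0.38). Each of these was past 1.2 fold, and none of them reached 1.5 fold.
MIR377 read 6.12 and 5.84 (-0.28), and MIR539 read 6.40 and 6.12 (-0.28), both just past 1.2 fold. MIR412 read 6.60 and 6.42 (-0.18), short of it. MIR541 was the exception, with 5.71 on the control siRNA array and 5.97 on the linc00467 siRNA array, a difference of 0.26.

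The other 29 downstream genes lay under the median level. The 13 of these with a mean level from 4 up had a median of -0.31, and 8 of them, MIR329-2 and MIR485 included, were at least 1.2-fold lower, beside 5.51% of named genes and 11.4% of other microRNA genes in this class. MIR299, MIR300 and MIR1185-2 had -0.66, -0.65 and -0.49, and MIR758 had -0.40. MIR487B, a microRNA gene studied as a marker of outcome in neuroblastoma, read 4.94 and 4.63 (-0.31), and MIR889 had the same -0.31 after rounding. MIR543, MIR409 and MIR1193 were lower by less than 1.2 fold, at -0.26, -0.14 and -0.05, and MIR1197 and MIR654 were equal on both arrays.
The 16 genes with a mean level under 4 had a median of -0.16, with 6 lower and 1 higher by at least 1.2 fold, where 6.51% of named genes and 13.1% of other microRNA genes were lower. Past 1.2 fold were MIR655 at -0.77, MIR495 at -0.61, MIR494 at -0.38 and MIR381 at -0.38, beside MIR379 and MIR376A2. Of these 6, MIR494 was the only one not under the silent genes on both arrays. It read 4.09 and 3.71, the latter under the silent genes of its array. With the floor its difference was -0.24, short of 1.2 fold. MIR369, MIR376C, MIR376A1, MIR487A, MIR323A, MIR411 and MIR380 lay between -0.19 and -0.01, and MIR496 and MIR410 were equal, the latter at 2.92. MIR376A1 read 1.60 and 1.47. MIR376B read 2.09 and 2.47, a difference of 0.37, with both values under the silent genes. In all, 15 of 42 downstream genes lay under the median of the silent genes on both arrays and 25 above it on both.
Across the 42 genes the difference and the mean level had a Pearson correlation of -0.37 and a Spearman correlation of -0.40, a description in which the genes share both arrays and are not independent. Over other microRNA genes the median difference was 0.00 in both classes under the median level.

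**Figure D2:**
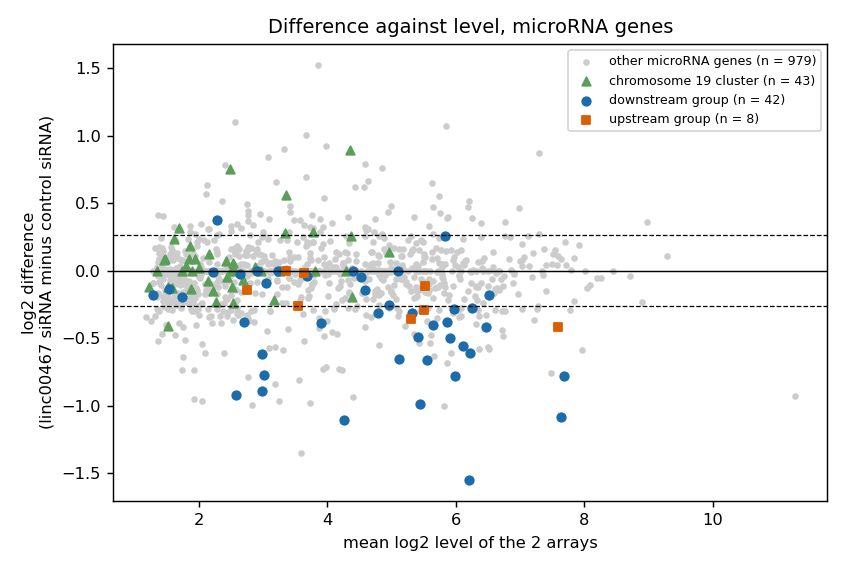
Log2 difference (linc00467 siRNA minus control siRNA) against the mean log2 level of the 2 arrays for each microRNA gene with a named probe set. Blue circles are the 42 downstream genes, orange squares the 8 upstream genes, green triangles 43 genes of the chromosome 19 cluster and grey points the remaining microRNA genes, dashed lines mark 1.2 fold, and to the right of 5.68 only MIR541 of the blue circles lies above 0.

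In the upstream group a smaller share of genes passed 1.2 fold than in the downstream group, but not in every class of level. Of 8 measured genes, 7 were lower with linc00467 siRNA, 1 was equal and none was higher. At least 1.2-fold lower were 3, or 37.5%, beside 9.72% of all named genes and 13.3% of other microRNA genes, and none was lower by 1.8 fold. The median was -0.20, with a lowest value of -0.42, that of MIR127. On both arrays 4 of the 8, MIR493, MIR337, MIR432 and MIR136, lay under the silent genes, and with the floor at the silent genes the upstream median was -0.0020. With a mean level from 4 to the median, 2 of 3 upstream genes were lower by 1.2 fold (66.7%), beside 8 of 13 downstream genes (61.5%). At or above the median it was 1 of 1 beside 11 of 13, and under 4 it was 0 of 4 beside 6 of 16.
MIR127, the antisense microRNA of RTL1 that is known to act on BCL6, read 7.81 on the control siRNA array and 7.39 on the linc00467 siRNA array (-0.42). MIR665 read 5.49 and 5.13 (-0.36). MIR370, which acts on the fatty acid oxidation gene CPT1A in human liver cells, read 5.65 and 5.36 (-0.29). MIR127 was the only upstream gene at or above the median level, and these 3 were the genes past 1.2 fold.
MIR136 and MIR431 lie opposite RTL1 as MIR127 does. MIR136 read 3.67 and 3.41 (-0.26), and MIR431 read 5.58 and 5.47 (-0.11). MIR432 read 2.82 and 2.68 (-0.15). None of these 3 reached 1.2 fold. MIR493 read 3.64 and 3.63 (-0.02), and MIR337 was exactly equal at 3.37.
The medians of both groups differed by -0.14, downstream minus upstream. Among genes at or above the median level the gap was -0.08, with a single upstream gene, and with the floor it was -0.21. Members share the arrays and the locus and are not replicates, so this gap was not tested. The mature sequences of MIR127 are shown, with the seed in capitals, because it is the upstream gene with the largest difference.
miR-127-3p: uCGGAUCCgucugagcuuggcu
miR-127-5p: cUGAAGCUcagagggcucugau

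Along the downstream cluster the lower values were spread over its whole length. By RefSeq annotation 13 members, from MIR379 to MIR495, lie within the span of the gene model LOC124903407, of which 7 were at least 1.2-fold lower and the median was -0.38. The next 8, from MIR376C to MIR1185-2, lie in no other annotated gene and had a median of -0.28, with 4 lower and MIR376B higher by 1.2 fold. The 6 from MIR381 to MIR655 lie within MIR381HG, a noncoding host gene on the same strand, and all 6 were lower by 1.2 fold as deposited, with a median of -0.35. Of the 6, MIR381 and MIR655 lay under the silent genes on both arrays, so that 4 stayed past 1.2 fold with the floor. The last 15, from MIR487A to MIR656, had 8 lower by 1.2 fold and a median of -0.28, and none of these 8 lay under the silent genes on both arrays. In the first 2 stretches MIR379, MIR495 and MIR376A2 did. As shares, 54%, 50%, 100% and 53% of the stretches in this order were lower by 1.2 fold, beside 9.72% of all named genes and 13.3% of other microRNA genes. The members were chosen from this contrast, so nothing is read from these shares. The Spearman correlation of the difference with the order of the 42 genes was 0.03. All members lie on the plus strand, 4 of the upstream genes within RTL1 on the opposite strand, and MIR370 within MEG8. Whether a member lies in an exon or an intron of these genes was not analysed here.

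**Figure D3:**
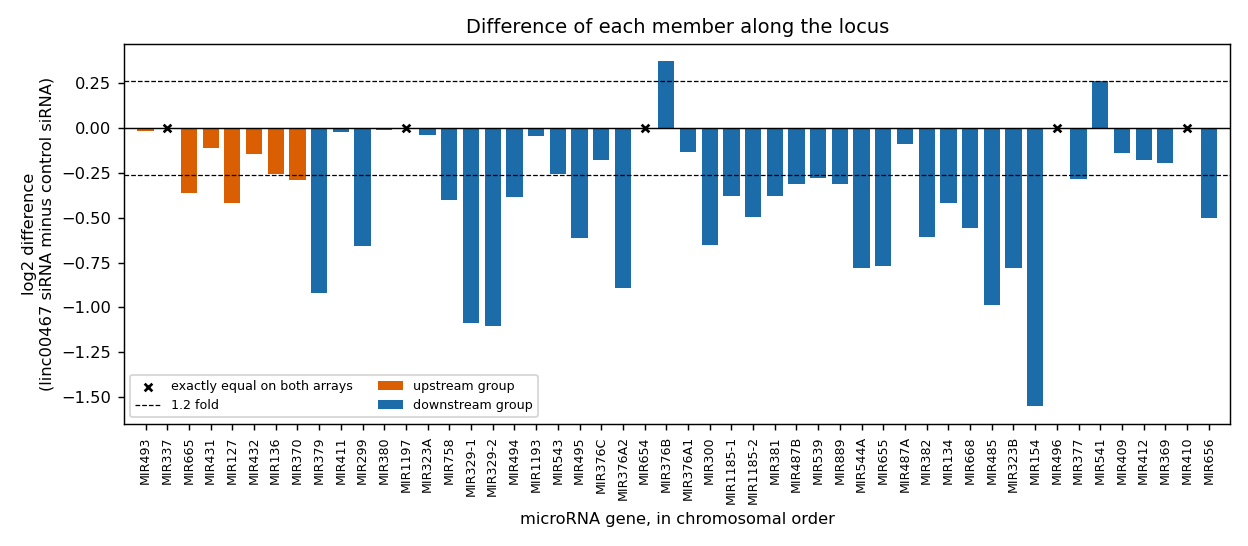
Log2 difference (linc00467 siRNA minus control siRNA) of each of the 50 measured members in chromosomal order, orange for the upstream and blue for the downstream group. Dashed lines mark 1.2 fold, crosses mark genes with exactly equal values, and the bars of MIR154, MIR329-2 and MIR329-1 reach furthest below 0, at -1.55, -1.10 and -1.09.

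Genes that share a seed did not always have the same difference. MIR154 had -1.55 and MIR487A, with the same 3p seed, had -0.09. MIR485 had -0.99 and MIR539 -0.28, and MIR379 had -0.92 and MIR411 -0.02. MIR379, MIR411 and MIR487A lay under the silent genes on both arrays, so that MIR379 and MIR411 had the same value with the floor, whereas MIR154, MIR485 and MIR539 lay above them. The pairs MIR329-1 and MIR329-2, MIR1185-1 and MIR1185-2, and MIR300 and MIR381 each had both genes lower by 1.2 fold, of which MIR381 was not lower with the floor. MIR541 at 0.26 and MIR654 at 0.00, printed as the last pair, share a seed and were both not lower.
The letters AUACA, which recur in the seeds printed above, were searched on the mature strand after the differences had been seen. The sequences they were read from had been chosen in part for large negative differences. They occur in 14 of 73 downstream mature sequences, or 19.2%, in 1 of 15 upstream ones, that of miR-337-5p, and in 25 of 2280 of other microRNA genes, or 1.10%. The 14 downstream genes that hold the word were all lower, 12 of them past 1.2 fold, and had a median of -0.50 and a median level of 5.43. MIR381 and MIR655 of these 12 lay under the silent genes on both arrays. The upstream carrier, MIR337, was equal on both arrays. Of 16 other microRNA genes with the word and a named probe set, 3 were lower, 7 equal and 6 higher, none was lower by 1.2 fold, and the median was 0.00. Their median level was 2.81, under the silent genes, so these 16 are not matched in level to the downstream genes. The 28 downstream genes without the word had 13 lower by 1.2 fold, a median of -0.22 and a median level of 4.56. The shares past 1.2 fold were 86% with the word and 46% without it, beside 9.72% of all named genes and 13.3% of other microRNA genes. Both sets of downstream genes thus differed in level too, and the part of level in this gap was not tested. Because the word came from sequences chosen in this way, nothing is read from the gap. Outside the locus, 4 microRNA genes with a named probe set share a seed with a member. MIR362, which has the seed of miR-329-3p, was equal on both arrays at 3.11, and so were MIR3118-1 and MIR3118-4, which have that of miR-134-5p. MIR563, with that of miR-380-5p, had a difference of 0.22. The hairpins of 40 downstream genes had a median GC content of 41.1%, from 28.8% to 60.3%, and the Spearman correlation of GC content with the difference was 0.12.

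Other RNAs of the locus were lower or nearly equal with linc00467 siRNA. MEG3, the maternal long noncoding RNA next to the clusters, had -0.37 and -0.27 at its 2 probe sets. RTL1 had -0.36 and -0.20, and MEG9, beyond the end of the downstream cluster, had -0.18 and 0.00. The paternally expressed DLK1 read 11.84 on both arrays, and the flanking genes BEGAIN and WDR25 were exactly equal. RTL1 overlaps 4 members on the opposite strand. Its probe set with -0.36 has an ID between those of MIR431 and MIR127, and the one with -0.20 has an ID outside the run from MIR493 to MIR656. Which strand each reads was not tested, so the -0.36 may come from the strand of the microRNAs. MIR770 and MIR2392, a pair of microRNA genes that lie next to MIR493 and are no members, had -0.28 and -0.15. MEG8 and the small nucleolar RNA genes of the locus have no named probe set.
The probe set IDs of 50 member probe sets followed the RefSeq order of their genes with 0 exceptions. Between the IDs of MIR370 and MIR379 lie 53 probe sets that are unnamed here, and which RNAs they measure was not analysed. Of these 53, 42 were lower, 22 by at least 1.2 fold, and none was higher by 1.2 fold. That is 41.5%, beside 13.4% of all 37519 unnamed probe sets. Their median was -0.21, the same as that of the 32 of them at or above the median level. Of these 32, 12 were lower by 1.2 fold, or 37.5%, beside 19.3% of all unnamed probe sets at such levels. These probe sets were not used to choose the members, but they come from the same 2 arrays.

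Compared with the other microRNA clusters, both groups of the locus stood at the low end. The downstream group had been noticed for low values in this same contrast, so nothing is read from the ranks below. Grouped by RefSeq order, with neighbouring genes at most 50 kb apart, 11 clusters have at least 5 genes with a named probe set. The downstream group ranked 1 and the upstream group with MIR770 and MIR2392 ranked 2, with medians of -0.35 and -0.20. The third was the X-linked cluster from MIR532 to MIR502, with -0.03, and the other 8 had medians between -0.01 and 0.18. The chromosome 19 cluster, the other large imprinted microRNA cluster and best known from placenta, had 1 of 43 genes lower by 1.2 fold, or 2.33%, with a median of 0.00. Its levels ran from 1.22 to 4.97, so that none of its genes reached the median level, as 13 downstream genes did.

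**Figure D4:**
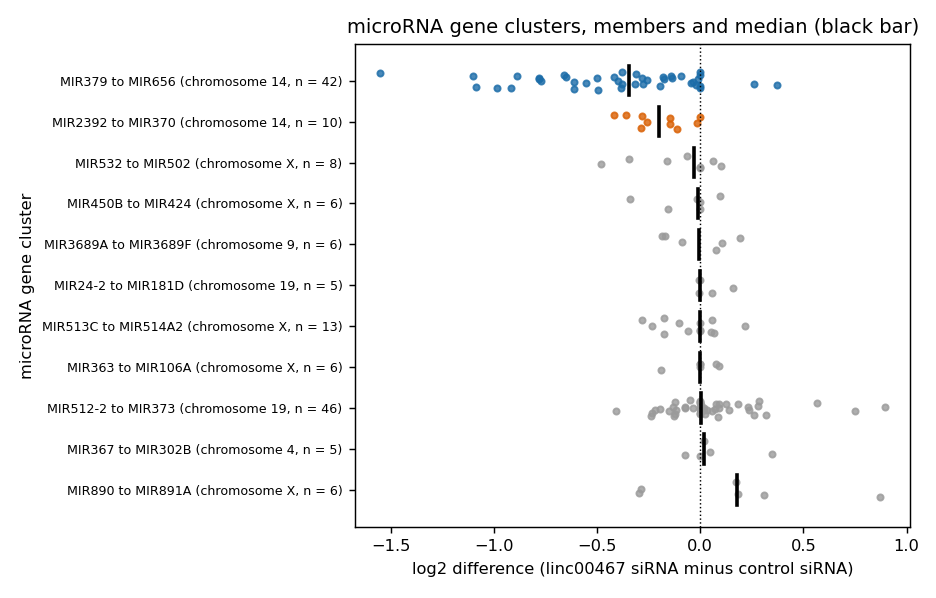
Log2 difference (linc00467 siRNA minus control siRNA) of each gene in the 11 microRNA clusters with at least 5 named genes, with a black bar at each cluster's median. Clusters are ordered by median from top to bottom, from -0.35 for MIR379 to MIR656 (blue) and -0.20 for MIR2392 to MIR370 (orange) to 0.18, and vertical scatter within a cluster carries no value. The blue cluster had been noticed for low values in this same contrast.

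Genes that make or use microRNAs did not have a common direction. Of 22 listed genes 10 have a named probe set, and their median was -0.01. Past 1.2 fold, 2 lay below and 2 above 0. DDX5, a helicase of the DROSHA complex, had -0.37 and the exonuclease gene XRN2 had -0.38, whereas TNRC6A and TNRC6C, which encode partners of Argonaute, had 0.54 and 0.59. DGCR8 had -0.10, and TARBP2 and XPO5 were equal on both arrays. DROSHA, DICER1 and the Argonaute genes have no named probe set.
Of 16 listed regulators of imprints or of the cluster, 14 were measured, with a median of 0.03, 1 lower and 1 higher by at least 1.2 fold. MEF2A and MEF2D, of the family that drives the cluster in rodent neurons, had 0.29 and 0.26. The DNA methyltransferase genes DNMT1, DNMT3A and DNMT3B had -0.01, 0.14 and 0.05, and TRIM28, which keeps imprints silent with zinc finger proteins, had -0.09. The lower gene was DPPA3 at -0.48, with a mean level of 3.65.
Of 9 genes reported as targets of cluster microRNAs 8 were measured, with a median of -0.07, 3 lower and none higher by 1.2 fold. DCX, a neuronal microtubule gene on which miR-134 acts in mouse, read 5.57 and 4.79 (-0.78). CPT1A had -0.42. RTL1 had a mean of -0.28, from -0.36 and -0.20 at its 2 probe sets, of which only the first was past 1.2 fold. The first has an ID between those of MIR431 and MIR127, and which strand each reads was not tested. RTL1 is thus among the 3 lower genes only by a mean that may mix both strands. PUM2 and PRPS1 had 0.20 each, BCL6 had 0.19, and LIMK1 and FGF20 had -0.06 and -0.07. For these lists the background is again 9.72% lower and 8.56% higher by 1.2 fold, and 21.7% of all named genes were exactly equal.
Whether the members' probe sets bound mature microRNAs, hairpins or longer transcripts of the locus was not tested, and in bulk RNA fewer expressing cells and less RNA per cell cannot be told apart.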

How the data were processed

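The members, gene lists and comparisons were chosen with earlier results of these data known. Total RNA of 1 culture per condition was labelled with biotin and hybridized to 1 array each, and the authors deposited a log2 level for each of 53617 probe sets and both arrays. R with Bioconductor is named in the methods, and MAS5 in the processing notes of the submitters. How the arrays were normalized, in which version and on which genome build is not given in the sources used here. The depth of an array has no count.

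Differences are linc00467 siRNA minus control siRNA. A gene symbol from the platform annotation was present for 16098 probe sets, with 0 carrying several symbols, and 37519 are unnamed here. Probe sets of a gene were averaged, which gave 14884 genes. Counts used folds of 1.2 and 1.8. RefSeq (GRCh38.p14) gave gene order and sequences. No test was made because there is 1 array per condition. All upstream genes, the downstream genes at or above the median level, the 5 lowest and those above 0, and members of seed families of 3 genes were to be named with both levels, and the rest of the members and genes added for a count are named by value. The summaries were tested on simulated data.

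Alternatives were centring on the median, quantile normalization, lowess with a fraction of 0.2, a floor at the silent genes, a level filter, other folds and other ways to combine copies. Python 3.11.15, numpy 2.4.6, pandas 2.3.3, scipy 1.17.1, statsmodels 0.14.6, edlib and matplotlib 3.10.9 were used.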

Additional observations from a re-analysis of the deposited data

How the results depend on the processing

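The downstream median of -0.35 became -0.33 with quantile normalization, -0.35 with the lowess correction and -0.31 with numbered copies counted once, and centring changed nothing because the median differences of named probe sets and of other microRNA genes were 0.00. With a floor at the silent genes it was -0.21, also with the same floor on both arrays, an alternative chosen after seeing the data, as were leaving out equal genes (-0.38) and counting probe sets (-0.31). The upstream median of -0.20 became -0.0020 with that floor, -0.056 with the same floor on both arrays, and -0.42 at or above the median level, where MIR127 alone is left. The gap of -0.14 between the medians became -0.081 at or above the median level and widened to -0.21 with the floor. The count of 25 downstream genes lower by 1.2 fold ran from 19 with the floor to 26 with lowess, was 11 at or above the median level, where fewer genes enter, and was 13, 6 and 3 at folds of 1.5, 1.8 and 2. The upstream count of 3 became 4 with lowess, 1 at or above the median level and 0 at each of those folds. With the floor MIR379, MIR495, MIR376A2, MIR381 and MIR655 each had 0.11, which is the distance between the floors of the 2 arrays, since both values of each gene lie under them. MIR494 had -0.24 with the floor, short of 1.2 fold. MIR376A1 was equal at 1 of its 2 probe sets and had -0.27 at the other. No paired analysis was possible because there is 1 array per condition.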
